A study of Homo sapiens with 12 samples.

Results

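NCI-H226_CL3 cells, a mesothelioma line that had already become resistant to GNE-7883, were given GNE-7883 or the vehicle DMSO, and their RNA was compared in 6 of the 12 libraries of the series: 3 with DMSO and 3 with GNE-7883. GNE-7883 is a small-molecule inhibitor that binds the TEAD transcription factors. Per the labels, the cells were derived from NCI-H226, are NF2 null like their parent, and were selected by growth in a TEAD small-molecule inhibitor raised from 0.25 to 3 µM, so both groups carry the same history of selection. The other 6 libraries hold the sensitive parental NCI-H226 cells with DMSO or GNE-7883, 3 of each, and serve here only to test where the response of the resistant cells differed from theirs. The title of the series sets its question, acquired resistance to TEAD inhibition and the part of the Hippo and MAPK pathways in it. The comparison describes the difference between GNE-7883 and DMSO in cells that were already resistant, called their response here. Whether withdrawal of the selecting inhibitor from the DMSO cells adds to this difference was not tested. A single resistant line was measured, and the dose and time of the final incubation are not stated. Whether replicate libraries were grown separately is not stated either, so the p-values rest on a spread between libraries that may be technical.

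In the Hippo pathway, the kinases MST1 and MST2 and LATS1 and LATS2 hold the coactivators YAP1 and TAZ (gene WWTR1) out of the nucleus, and the NF2 product merlin promotes the activity of these kinases. YAP1 and TAZ bind DNA through TEAD1 to TEAD4 and raise genes of growth, matrix and the cytoskeleton, among them CCN1, CCN2 and ANKRD1. Loss of NF2 is frequent in mesothelioma, a tumour of the lining of the chest and abdomen. MAPK signalling through ERK feeds the AP-1 factors, which share many enhancers with TEAD.

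The resistant libraries held 31878934 to 46962645 counts, and mitochondrially encoded RNA took 0.561% to 0.685% of counts with DMSO and 0.614% to 0.693% with GNE-7883. NF2 had 7 counts over the 6 resistant libraries, 0 to 3 in each, which was below the filter for testing. The labels give lung epithelial tissue and mesothelioma as cell type. All 20 mesothelial markers listed had a count, with CALB2 at 194 RPKM and MSLN at 51.6 RPKM with DMSO, whereas NKX2-1, the defining factor of lung epithelium, was at 0 and the 12 alveolar and airway markers summed to 2.72 to 3.81 RPKM per library. General epithelial markers were mixed. The list summed to 1150 to 1420 RPKM per library with DMSO, and 18 of 20 had a count, but only 11 passed the filter for testing. CLDN3 and GRHL2 were at 0, and CDH1 and EPCAM were too low to be tested. The 17 mesenchymal markers summed to 3660 to 3690 RPKM with DMSO. Of 17 blood and endothelial markers, CD3E, MS4A1 and CD68 were at 0 and the list summed to 4.84 to 5.04 RPKM with DMSO and 6.88 to 7.07 with GNE-7883. Most of these sums and of their rise was KDR, at a mean of 3.77 RPKM with DMSO and 5.57 RPKM with GNE-7883. Within their groups, the deviations of DMSO replicate 2 and GNE-7883 replicate 1 rose most with the GC content of genes (Spearman's correlation across genes 0.57 and 0.51), and counts that lead the text were also computed without both libraries. Those of GNE-7883 replicate 2 and DMSO replicates 3 and 1 fell with GC content (-0.50, -0.41 and -0.29), so leaving out the former libraries does not remove the trend. The log2 fold change with GNE-7883 itself had a correlation of 0.16 with GC content.

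RNA levels of many genes still differed between GNE-7883 and DMSO in the resistant cells, by small amounts. Of 17029 genes tested, 1339 rose (7.86%) and 1131 fell (6.64%), 14.5% together, at an adjusted p below 0.05 in edgeR's quasi-likelihood test. Levels are CPM (counts scaled to library size) scaled by TMM, and "rose" and "fell" are used only of genes that passed this test. Changes of single genes and medians of lists are log2 fold changes, and ± gives the standard error of the fit (3 libraries per group). The median rise was 0.35 and the median fall -0.27 on the log2 scale. A change of at least 1.5-fold was found in 278 of the rises and 139 of the falls, and of at least 2-fold in 82 and 44. Over all genes tested, the median log2 fold change was -0.0011 and the median size of the change 0.125, against 0.38 for the same genes in sensitive cells. Among the called genes, 2430 had no overlap between the 3 values of each group, where 31.8% of all genes tested had none.

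The number of calls moved with single libraries. Without DMSO replicate 1, 793 genes rose and 587 fell. Without GNE-7883 replicate 3, 773 rose and 529 fell. In all 6 fits that left out 1 library, 664 rises and 461 falls were called again. The counts of members called in a list are to be read against the 7.86% of all genes that rose and the 6.64% that fell. Some list counts of 2 or fewer moved by 1 when a library was left out, which is not repeated for each. With DMSO replicate 2 and GNE-7883 replicate 1 both left out, 1609 genes rose and 1337 fell, and 88.5% of the calls over all 6 libraries were among them. With all 12 libraries in 1 fit, 947 genes rose and 716 fell. Calls differed with level: in the genes with a mean of up to 1.73 CPM, 1 of 4 equal groups by level, 3.36% were called with a median size of 1.02 on the log2 scale, and in the group of highest level 23.1% were called with a median size of 0.23.

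Most of the remaining response went the same way as the response of the sensitive cells and was smaller. In sensitive cells, 58.1% of genes were called changed with GNE-7883, and the difference between the responses of the lines was called for 35.7%. Of the 1339 genes that rose in resistant cells, 1118 rose in sensitive cells, 84 fell there and 137 were not called. Of 1130 falls tested in both, 924 fell in sensitive cells, 49 rose and 157 were not called. By the test of the difference, 658 of the rises and 682 of the falls were smaller in resistant cells, and 11 and 17 were larger. Read from the other side, 22.4% of the genes that rose in sensitive cells and 18.3% of those that fell there were called in the same direction in resistant cells. Across the 2469 genes called in resistant cells and tested in both lines, Pearson's r between the log2 fold changes was 0.76, a description over genes, which are not independent and were chosen here by their call in resistant cells.

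**Figure D1:**
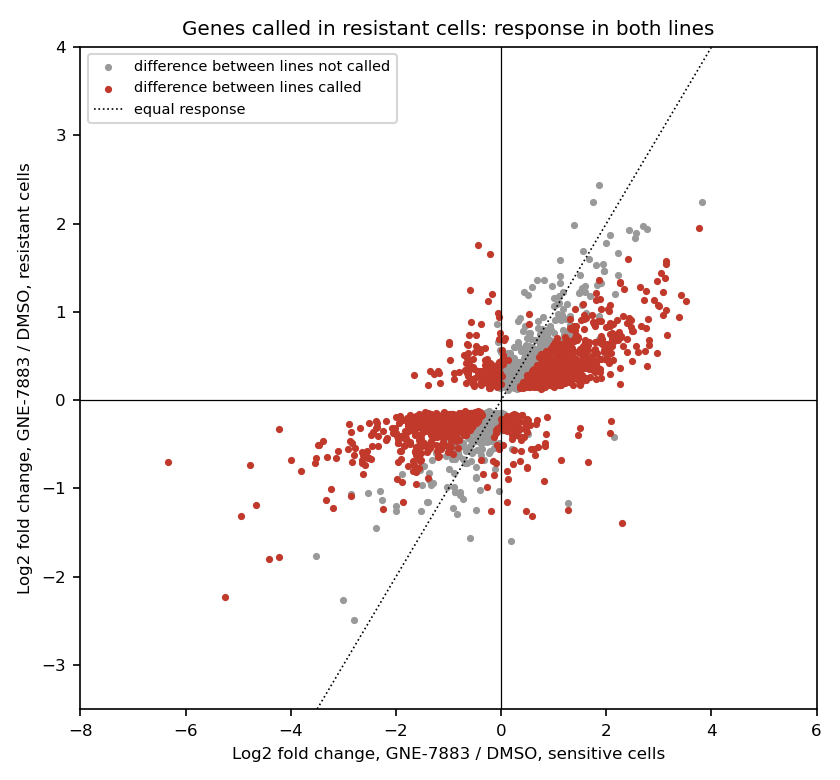
Log2 fold change with GNE-7883 in sensitive cells (horizontal) and resistant cells (vertical) for each gene called in resistant cells and tested in both lines, with genes whose difference between lines was called in red and the dotted line marking equal responses. Most points lie in the lower left and upper right and nearer to 0 on the vertical than on the horizontal axis, and 84 rises and 49 falls were called in the opposite direction in sensitive cells.

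The start regions of genes from the YAP/TEAD target list and the interferon-stimulated list are shown first, so that motif matches, or their absence, can be read beside the values. They are the called YAP/TEAD targets and interferon-stimulated genes with the largest change that have an entry in the RefSeq table, build GRCh38.p14, 250 bases before to 50 after the start, printed 5′ to 3′ along the gene's strand. For the YAP/TEAD targets, capitals mark the TEAD core motif GGAATG and the AP-1 site TGANTCA. For the interferon-stimulated genes, capitals mark the core of the interferon-stimulated response element (TTTC, 2 free bases, TTTC), or the form with 1 free base between the same letters, a pattern added after these windows had been read. All motifs were searched on both strands. KRT34 lies at chr17:41382257-41382556 (minus strand), ANKRD1 at chr10:90921038-90921337 (minus), F3 at chr1:94541710-94542009 (minus), IFI44L at chr1:78620198-78620497 (plus), OAS1 at chr12:112906712-112907011 (plus) and XAF1 at chr17:6755796-6756095 (plus).
KRT34: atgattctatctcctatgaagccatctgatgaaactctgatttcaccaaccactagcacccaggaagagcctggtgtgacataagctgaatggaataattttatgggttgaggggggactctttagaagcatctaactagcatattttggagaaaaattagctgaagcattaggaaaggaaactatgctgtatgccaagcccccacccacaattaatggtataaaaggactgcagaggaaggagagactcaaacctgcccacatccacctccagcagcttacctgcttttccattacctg
ANKRD1: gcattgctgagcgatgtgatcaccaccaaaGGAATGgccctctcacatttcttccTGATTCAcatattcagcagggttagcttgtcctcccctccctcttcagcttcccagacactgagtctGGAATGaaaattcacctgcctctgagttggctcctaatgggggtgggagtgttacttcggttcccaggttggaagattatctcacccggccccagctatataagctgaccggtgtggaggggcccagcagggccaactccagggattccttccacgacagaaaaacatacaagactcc
F3: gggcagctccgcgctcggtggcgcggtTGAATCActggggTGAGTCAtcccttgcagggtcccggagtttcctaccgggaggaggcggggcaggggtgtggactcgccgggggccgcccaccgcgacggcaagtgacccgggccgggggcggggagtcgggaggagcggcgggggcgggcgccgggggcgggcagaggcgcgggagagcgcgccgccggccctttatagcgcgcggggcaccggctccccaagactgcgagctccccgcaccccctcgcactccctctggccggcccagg
IFI44L: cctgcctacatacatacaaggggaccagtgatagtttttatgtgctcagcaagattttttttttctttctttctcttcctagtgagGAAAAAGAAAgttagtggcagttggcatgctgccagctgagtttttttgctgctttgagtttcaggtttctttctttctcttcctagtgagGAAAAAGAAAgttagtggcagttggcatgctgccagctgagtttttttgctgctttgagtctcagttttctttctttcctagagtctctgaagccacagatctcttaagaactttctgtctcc
OAS1: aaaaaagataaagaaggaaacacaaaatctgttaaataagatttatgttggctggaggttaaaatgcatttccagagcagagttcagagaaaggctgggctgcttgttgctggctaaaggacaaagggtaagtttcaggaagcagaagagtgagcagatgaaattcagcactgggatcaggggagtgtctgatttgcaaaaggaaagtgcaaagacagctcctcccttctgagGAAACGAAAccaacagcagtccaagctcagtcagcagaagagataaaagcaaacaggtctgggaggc
XAF1: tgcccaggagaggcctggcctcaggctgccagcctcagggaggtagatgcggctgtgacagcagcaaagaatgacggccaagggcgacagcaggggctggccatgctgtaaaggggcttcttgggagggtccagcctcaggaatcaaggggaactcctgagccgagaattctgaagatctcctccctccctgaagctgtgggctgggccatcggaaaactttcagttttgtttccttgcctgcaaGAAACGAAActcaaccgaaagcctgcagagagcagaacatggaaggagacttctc

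ANKRD1 had 2 TEAD core motifs and 1 AP-1 site, the first match 220 bases before the start. F3 had 2 AP-1 sites and KRT34 had a match to neither motif. IFI44L had 2 copies of the response element core, while OAS1 and XAF1 each had 1 match to the shorter form, 17 and 5 bases before the start. The response element core was found in 71.9% of the 32 windows of tested interferon-stimulated genes and 56.2% of 16 antigen presentation windows, against 6.49% of 1002 genes that rose, 2.48% of 848 that fell and 2.83% of all 11219 tested genes with a window. The TEAD core motif was found in 35% of 20 YAP/TEAD target windows, against 12.1% of genes that fell, 10.9% of genes that rose and 11.1% of all tested genes with a window. It was about as frequent, at 31.6%, in 19 windows of interferon signalling components, a list with 12 rises and 0 falls, so this share was not particular to the YAP/TEAD targets. Matches are letters in these windows and do not show binding.

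YAP/TEAD targets were lower with GNE-7883 in the resistant cells, by less than in sensitive cells. Of 29 targets tested, 15 fell and 1 rose, with a median log2 fold change of -0.18, where 7.86% of all genes tested rose and 6.64% fell. The groups did not overlap in any of the 16 called members, as in 2430 of all 2470 called genes. In sensitive cells 23 fell and 4 rose, with a median of -0.68, where 28.4% of all genes tested there fell and 29.8% rose. The difference between lines was called for 21 of the 29, against 35.7% of all genes. For 20 of these 21 the resistant response lay above the sensitive one. The list is one of known YAP/TEAD target genes, and its fall in these data was already known when it was used. Between 10 and 18 members fell when 1 library was left out, the fewest without DMSO replicate 1, and 17 fell without DMSO replicate 2 and GNE-7883 replicate 1.

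CCN2, a matricellular protein and standard readout of YAP activity, was measured at 109, 102 and 103 CPM with DMSO and 69.4, 72.1 and 72.3 CPM with GNE-7883. All 3 treated values lay below all DMSO values. Its log2 fold change was -0.55 ± 0.05 (adjusted p = 6.79e-06). The fall in sensitive cells was -2.92, and the difference between lines was 2.36 (adjusted p = 2.98e-11). CCN1, its relative, was at 1463, 1434 and 1413 CPM with DMSO and 1143, 1123 and 1139 CPM with GNE-7883, again without overlap. CCN1 fell with a log2 fold change of -0.34 ± 0.04 (adjusted p = 3.80e-05), against -1.31 in sensitive cells.

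ANKRD1, a cardiac and muscle ankyrin-repeat protein whose start region holds 2 TEAD core motifs, was at 5.72, 4.96 and 4.97 CPM with DMSO and 2.92, 3.51 and 3.02 CPM with GNE-7883. The DMSO libraries were all higher. Its change was -0.73 ± 0.11 (adjusted p = 7.91e-04), against -2.6 in sensitive cells (difference 1.86, adjusted p = 3.77e-07). F3, the tissue factor that starts coagulation, stood at 138, 131 and 134 CPM with DMSO and 89, 87.4 and 86.4 CPM with GNE-7883, with tight groups that did not overlap. The change of F3 was -0.62 ± 0.04 (adjusted p = 1.46e-06), and its fall in sensitive cells was -2.81.

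Other targets fell in the resistant cells by similar amounts. GADD45A, a stress-inducible regulator of the cell cycle and DNA repair, fell with a log2 fold change of -0.52 ± 0.05 (adjusted p = 7.72e-06), DLC1, a GTPase-activating protein, with -0.43, and IGFBP3, which binds insulin-like growth factors, with -0.40. NPPB, AMOTL1, AXL, CCDC80, FJX1 and LATS2 fell by smaller amounts, with log2 fold changes from -0.32 to -0.18. The call was lost for AMOTL1 without DMSO replicate 1 or GNE-7883 replicate 1, for FJX1 without DMSO replicate 1 or GNE-7883 replicate 3, and for LATS2 without DMSO replicate 1 or 3 or GNE-7883 replicate 2 or 3 (adjusted p up to 0.07, 0.154 and 0.121). TNS3, a focal adhesion protein, was the member that rose, with 0.41 ± 0.05 (adjusted p = 9.02e-05). KRT34, a hair keratin, was near the limit of detection: it was at 0.351, 0.356 and 0.378 CPM with DMSO and 0, 0.0717 and 0.168 CPM with GNE-7883. Its log2 fold change of -2.26 ± 0.58 (adjusted p = 0.0184) was lost without DMSO replicate 1 or without GNE-7883 replicate 1 or 2 (adjusted p = 0.0569, 0.0552 and 0.0512). AMOTL2, NUAK2, AJUBA and PTPN14 did not pass, with log2 fold changes of -0.16, -0.13, -0.06 and 0.02.

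Of the factors themselves, WWTR1 and TEAD2 rose and none fell. YAP1 was at 259, 255 and 276 CPM with DMSO and 255, 265 and 266 CPM with GNE-7883, and the groups overlapped. Its log2 fold change was -0.01 ± 0.04 (adjusted p = 0.949), while in sensitive cells it rose with a log2 fold change of 0.48 (difference -0.49, adjusted p = 0.00533). TEAD1, TEAD3 and TEAD4 did not pass, with log2 fold changes of -0.04, 0.03 and -0.11. WWTR1 rose from 39.7, 39.7 and 42.5 CPM with DMSO to 50.9, 50.5 and 51.5 CPM with GNE-7883, a log2 fold change of 0.33 ± 0.05 (adjusted p = 8.97e-04). TEAD2 also rose, with 0.33 ± 0.07 (adjusted p = 0.00723). Both rose by more in sensitive cells, WWTR1 with 0.82 and TEAD2 with 0.80, and both differences were called (adjusted p = 0.00208 and 0.005). Of 23 Hippo pathway components tested, 2 rose and 5 fell (median log2 fold change -0.0062), where 7.86% of all genes tested rose and 6.64% fell. FRMD6, a relative of merlin that acts upstream of the kinases, fell with a log2 fold change of -0.40 ± 0.04 (adjusted p = 2.96e-05), and WWC2, another upstream regulator, with -0.25. The count of falls was 2 to 3 without DMSO replicate 1 or any 1 of the GNE-7883 replicates.

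**Figure D2:**
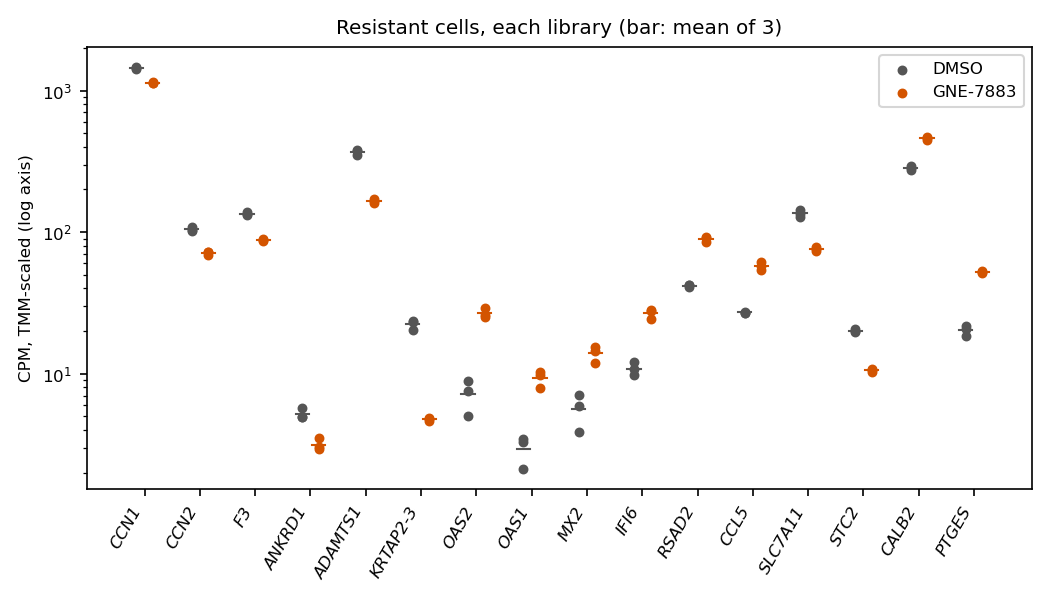
TMM-scaled CPM on a log axis of 16 named genes in each resistant library, 3 with DMSO (grey) and 3 with GNE-7883 (orange), with bars at the means. CCN1, CCN2, F3, ANKRD1, ADAMTS1, KRTAP2-3, SLC7A11 and STC2 are lower and the other 8 genes higher with GNE-7883, with no overlap between groups for any of the 16. All 16 were taken from the called genes, of which 2430 of 2470 had no overlap, against 31.8% of all genes tested.

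Interferon-stimulated genes, the antiviral programme that interferons raise, formed the list with the most rises. Of 41 members tested, 34 rose and 0 fell, with a median log2 fold change of 0.60, against 7.86% of all tested genes that rose. Between 32 and 35 members rose with 1 library left out. In sensitive cells 36 rose and 1 fell (29.8% of all genes tested there rose and 28.4% fell), with a median of 1.13. The difference between lines was called for 21 members, against 35.7% of all genes, 20 of them with a smaller response in resistant cells.

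OAS2, which makes the 2-5A messenger that activates RNase L, showed the largest rise among genes with a mean of at least 5 CPM. It was at 5.04, 7.59 and 8.81 CPM with DMSO and 26.1, 25.1 and 29.3 CPM with GNE-7883. The DMSO values differed among themselves, replicate 1 being lowest, but all lay below the treated ones. Its log2 fold change was 1.92 ± 0.14 (adjusted p = 1.50e-06), and 2.43 in sensitive cells, with a difference of -0.51 that was not called (adjusted p = 0.165). OAS1, from the same family and the same gene cluster, was at 2.11, 3.47 and 3.27 CPM with DMSO and 10.3, 7.89 and 9.85 CPM with GNE-7883 and rose with a log2 fold change of 1.67 ± 0.16 (adjusted p = 1.39e-05). Reads of the similar OAS genes may be shared between them, since the treatment of such reads is not given in the sources used here. OASL rose with a log2 fold change of 0.84 and OAS3 with 0.41.

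MX2, an antiviral GTPase, was at 3.87, 5.88 and 7.08 CPM with DMSO and 14.5, 11.9 and 15.3 CPM with GNE-7883. As with OAS2, DMSO replicate 1 was the lowest, and the groups did not overlap. The rise of MX2 was 1.33 ± 0.16 (adjusted p = 9.82e-05). IFI6, a mitochondrial and endoplasmic reticulum protein, rose from 9.7, 12 and 10.8 CPM with DMSO to 27.8, 24.3 and 28.3 CPM with GNE-7883, with 1.3 ± 0.09 (adjusted p = 9.35e-07). RSAD2, which encodes viperin, was at 42.2, 41.1 and 42.4 CPM with DMSO and 85.2, 91.5 and 90.3 CPM with GNE-7883, values that were tight within groups. The log2 fold change of RSAD2 was 1.09 ± 0.05 (adjusted p = 3.36e-08) and did not differ detectably from the 1.26 of sensitive cells (difference -0.17, adjusted p = 0.352). Its genomic neighbour CMPK2, a nucleotide kinase, rose with a log2 fold change of 1.14 ± 0.09 (adjusted p = 4.50e-06), and with 1.8 in sensitive cells (difference -0.66, adjusted p = 0.00157).

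IFI44L and XAF1 were low but rose. IFI44L was at 0.187, 0.267 and 0.252 CPM with DMSO and 1.18, 0.765 and 1.45 CPM with GNE-7883, without overlap, a log2 fold change of 2.25 ± 0.32 (adjusted p = 3.52e-04). XAF1, an interferon-induced regulator of apoptosis, was at 0.961, 1.05 and 0.976 CPM with DMSO and 2.49, 2.27 and 2.74 CPM with GNE-7883, and rose with a log2 fold change of 1.32 ± 0.15 (adjusted p = 7.24e-05). Other members rose by less: MX1 with 0.92, IFIT1 with 0.96, BST2 with 0.87, ISG15 with 0.66 and IFI27 with 0.58. TRIM25, IFITM2, EIF2AK2, PARP12, EPSTI1, DDX60L and PARP10 did not pass, with log2 fold changes between 0.01 and 0.32.

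Among 27 interferon signalling components tested, 12 rose and 0 fell (median 0.19), with 8 to 11 rises when 1 library was left out. The largest called rise was that of IFIH1, which encodes the RNA sensor MDA5. IFIH1 was at 16.6, 16 and 18 CPM with DMSO and 25.2, 28.9 and 28.5 CPM with GNE-7883. It rose with a log2 fold change of 0.71 ± 0.07 (adjusted p = 2.96e-05). TLR3, another sensor, rose with 0.68 ± 0.20 (adjusted p = 0.04), but its groups overlapped. Its call was kept in 2 of the fits that left out 1 library. The sensitive cells raised IFIH1 with a log2 fold change of 1.21, and the difference was -0.50 (adjusted p = 0.00893). Transcription factors of the pathway rose too: IRF7 with a log2 fold change of 0.68 ± 0.15 (adjusted p = 0.00804), IRF1 with 0.43 ± 0.06 (adjusted p = 3.24e-04) and STAT2 with 0.28. The kinase gene IKBKE rose with a log2 fold change of 0.51 ± 0.06 (adjusted p = 1.33e-04), by less than the 1.75 of sensitive cells (adjusted p of the difference = 5.40e-08). The ligand gene IFNB1 had 14 counts over the 6 libraries and IFNL1 had 3, too few to be tested, and IFNL2 and IFNL3 were at 0 counts. CGAS, TBK1, MAVS, JAK1 and IRF3 did not pass, at -0.26, 0.03, 0.09, 0.04 and 0.05.

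Antigen presentation genes, which load peptides on class I molecules, rose in 13 of 20 and fell in 0, with a median of 0.25, against 7.86% of all genes tested that rose (9 to 14 rises with 1 library left out). TAPBP, the tapasin gene, was at 188, 222 and 189 CPM with DMSO and 288, 262 and 276 CPM with GNE-7883. Groups did not overlap, and the change was 0.46 ± 0.06 (adjusted p = 2.51e-04). NLRC5, the transactivator of class I genes, rose with a log2 fold change of 0.39 ± 0.06 (adjusted p = 8.97e-04), and the immunoproteasome subunit PSMB10 with 0.51 ± 0.10 (adjusted p = 0.00432). HLA-B, HLA-C and HLA-E rose with log2 fold changes of 0.27, 0.19 and 0.25, values that carry the uncertainty of near-identical genes. The call of HLA-B was lost without GNE-7883 replicate 3, and that of HLA-C without DMSO replicate 1 or 3 or GNE-7883 replicate 1 or 3 (adjusted p up to 0.0526 and 0.0908). TAP1, TAP2 and PSMB8 did not pass (0.15, -0.06 and 0.11).

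NF-kB and cytokine genes split in 2 directions: of 28 tested, 9 rose and 6 fell (median 0.083). The rises included chemokines that interferon also raises. CCL5 was at 26.8, 27 and 27.3 CPM with DMSO and 57.3, 54.3 and 61 CPM with GNE-7883. All treated libraries lay above the DMSO libraries, and the log2 fold change of 1.09 ± 0.06 (adjusted p = 9.40e-08) was close to the 1.07 of sensitive cells (difference 0.02, adjusted p = 0.955). CXCL10, which attracts T cells, rose with a log2 fold change of 1.97 ± 0.40 (adjusted p = 0.00476) from low levels, 0.187, 0.111 and 0.063 CPM with DMSO and 0.408, 0.622 and 0.475 CPM with GNE-7883, with 15 counts over the DMSO libraries. TNFSF10, which encodes the death ligand TRAIL, was at 0.0234, 0.089 and 0.157 CPM with DMSO and 0.472, 0.406 and 0.531 CPM with GNE-7883. The DMSO libraries held 10 counts of TNFSF10 in all, and replicate 1 lay below the level of 3 counts, so the fitted log2 fold change of 2.43 ± 0.45 (adjusted p = 0.00286) starts from the limit of detection. The alarmin IL33 was at 1.12, 0.846 and 0.755 CPM with DMSO and 3.26, 3.71 and 3.97 CPM with GNE-7883. IL33 rose with a log2 fold change of 1.98 ± 0.16 (adjusted p = 4.50e-06). CSF1, the macrophage growth factor, rose with a log2 fold change of 0.80 ± 0.07 (adjusted p = 5.38e-06). The chemokine gene CXCL3 fell with a log2 fold change of -0.62 (adjusted p = 0.0161), IL1A with -0.58 (adjusted p = 1.24e-04), IL1B with -0.47 (adjusted p = 3.56e-05), CXCL2 with -0.40 (adjusted p = 0.0427), CXCL8 with -0.37 (adjusted p = 0.00425) and IL11 with -0.31 (adjusted p = 0.0116). The call of CXCL2 was lost with any 1 library left out, that of CXCL3 without DMSO replicate 1 or GNE-7883 replicate 2 and that of IL11 without GNE-7883 replicate 3 (adjusted p up to 0.148, 0.0635 and 0.0796). NFKB1, RELB and IL6 did not pass (-0.07, 0.04 and 0.15).

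Complement and acute phase genes rose in 7 of 16 tested and fell in 0 (median 0.39). C3, the central complement component, was at 444, 498 and 458 CPM with DMSO and 737, 702 and 770.2 CPM with GNE-7883, so that all treated libraries lay above all DMSO libraries. Its change was 0.66 ± 0.05 (adjusted p = 2.76e-06), against 1.85 in sensitive cells (adjusted p of the difference = 1.11e-08). The regulator CFI was at 4.64, 4.83 and 3.56 CPM with DMSO and 9.42, 11.5 and 11 CPM with GNE-7883 and rose with a log2 fold change of 1.27 ± 0.12 (adjusted p = 1.02e-05). CFB rose with a log2 fold change of 0.77, C1R with 0.56 and C1S with 0.47. Prostaglandin and lipid mediator genes rose in 6 of 15 and fell in 2 (median 0.16). PTGES, the inducible prostaglandin E synthase, was at 20.6, 21.6 and 18.4 CPM with DMSO and 51.1, 53 and 52.1 CPM with GNE-7883. The groups were tight and apart, with a rise of 1.36 ± 0.06 (adjusted p = 3.88e-08). PTGIS, the prostacyclin synthase, was at 289, 299 and 277 CPM with DMSO and 571, 606 and 597 CPM with GNE-7883 and rose with a log2 fold change of 1.04 ± 0.04 (adjusted p = 2.12e-08). The cyclooxygenase gene PTGS1 rose with a log2 fold change of 1.07 ± 0.23 (adjusted p = 0.00727) from low levels, 0.843, 0.579 and 1.32 CPM with DMSO. MGLL, a monoglyceride lipase, and LPAR1, a lysophosphatidic acid receptor, fell with a log2 fold change of -0.64 (adjusted p = 4.50e-06) and -0.38 (adjusted p = 0.00139).

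**Figure D3:**
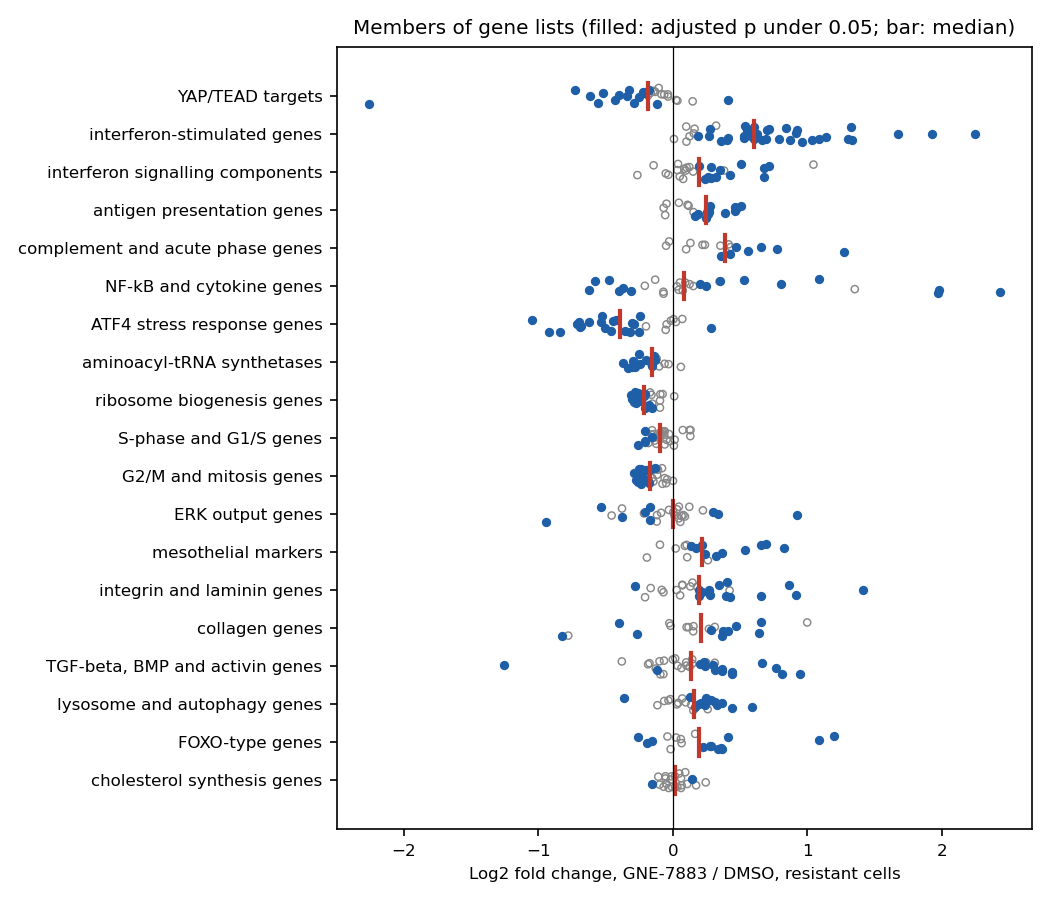
Log2 fold change with GNE-7883 in resistant cells (horizontal) of each tested member of 19 gene lists, filled where the adjusted p was below 0.05, with red bars at list medians. The interferon-stimulated list has 34 filled points to the right of 0, the ATF4 list 20 to the left, and the cholesterol list 2 near 0.

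Genes of the ATF4 stress response, which supply amino acids and redox balance under nutrient or endoplasmic reticulum stress, fell: 20 of 28 tested fell and 1 rose, with a median of -0.39, against 6.64% of all tested genes that fell. Between 17 and 20 fell with 1 library left out. In sensitive cells 17 fell and 6 rose, with a median of -0.38, where 28.4% of all genes tested there fell and 29.8% rose. The difference between lines was called for 18 members, against 35.7% of all genes. The resistant response lay above the sensitive one in 8 of them and below it in 10. ATF4 itself fell with a log2 fold change of -0.25 ± 0.04 (adjusted p = 0.0023).

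SLC7A11, the cystine-glutamate exchanger, was at 134, 128 and 144 CPM with DMSO and 78.2, 75.4 and 73.9 CPM with GNE-7883. All treated libraries lay below all DMSO libraries. It fell with a log2 fold change of -0.84 ± 0.05 (adjusted p = 5.24e-07), more than the -0.35 of sensitive cells (difference -0.49, adjusted p = 0.0325). STC2, a secreted glycoprotein, was at 19.8, 20.6 and 19.9 CPM with DMSO and 10.7, 10.3 and 10.8 CPM with GNE-7883 and fell with a log2 fold change of -0.92 ± 0.07 (adjusted p = 1.38e-06). CHAC1, which degrades glutathione, was at 6.25, 6.9 and 6.77 CPM with DMSO and 4.38, 4.3 and 3.52 CPM with GNE-7883. It fell with a log2 fold change of -0.70 ± 0.11 (adjusted p = 6.00e-04) in resistant cells and rose with a log2 fold change of 1.65 in sensitive cells, a difference of -2.35 (adjusted p = 1.90e-08). DDIT3, which encodes CHOP, fell with a log2 fold change of -0.69 ± 0.06 (adjusted p = 4.06e-06). INHBE, an inhibin subunit, fell with a log2 fold change of -0.72 ± 0.12 (adjusted p = 0.00105), and ATF3 with -0.68 ± 0.05 (adjusted p = 3.36e-06).

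Enzymes of serine and one-carbon metabolism on the same list fell as well: PSAT1 with -0.50 (adjusted p = 1.39e-05), MTHFD2 with -0.53 (adjusted p = 1.75e-05), SHMT2 with -0.36 (adjusted p = 4.50e-04) and PHGDH with -0.30 (adjusted p = 0.00233). MTHFD2P7, a processed copy of MTHFD2 whose reads cannot be fully told apart from it, fell with a log2 fold change of -0.77 ± 0.10 (adjusted p = 1.66e-04). ASNS, asparagine synthetase, was low at 0.937, 1.51 and 1.1 CPM with DMSO and 0.708, 0.574 and 0.419 CPM with GNE-7883. ASNS fell with a log2 fold change of -1.04 ± 0.25 (adjusted p = 0.014), a call lost without GNE-7883 replicate 3 (adjusted p = 0.0642). CEBPB was the member that rose, with 0.28 (adjusted p = 0.00382). NUPR1, CTH, DDIT4, PSPH and GDF15 did not pass (-0.20, -0.05, -0.05, 0.00 and 0.02).

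Aminoacyl-tRNA synthetases, many of which ATF4 also raises, fell in 12 of 20 and rose in 0 (median -0.16, 8 to 13 falls with 1 library left out). MARS1 was at 472, 468 and 450.2 CPM with DMSO and 369, 348 and 358 CPM with GNE-7883, without overlap, and fell with a log2 fold change of -0.37 ± 0.04 (adjusted p = 5.74e-05). SARS1, YARS1, GARS1 and IARS1 fell with log2 fold changes of -0.33, -0.30, -0.30 and -0.29. Of 20 amino acid transporters, 7 fell and 4 rose (median -0.063). SLC7A5, the large neutral amino acid transporter, was at 516, 601 and 538 CPM with DMSO and 405, 360.4 and 367 CPM with GNE-7883. It fell with a log2 fold change of -0.55 ± 0.06 (adjusted p = 4.51e-05), against -2.77 in sensitive cells (adjusted p of the difference = 2.36e-10). Its partner SLC3A2 fell with a log2 fold change of -0.32, and the glutamine carriers SLC1A5 and SLC38A1 with -0.32 and -0.38. SLC7A8, a related light chain, went up from 9.82, 10.4 and 9.95 CPM with DMSO to 18.9, 17.1 and 17.9 CPM with GNE-7883, a rise of 0.84 ± 0.07 (adjusted p = 5.38e-06).

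Unfolded protein response genes fell in 5 of 22 and rose in 1 (median -0.052). The count of falls was 3 without DMSO replicate 1, GNE-7883 replicate 2 or GNE-7883 replicate 3. HSPA5, the endoplasmic reticulum chaperone BiP, was at 839.9, 843 and 818 CPM with DMSO and 628, 622 and 617 CPM with GNE-7883. Its fall of -0.42 ± 0.04 (adjusted p = 8.02e-06) left no overlap between groups. ERN1, the stress sensor IRE1, rose with a log2 fold change of 0.35 ± 0.05 (adjusted p = 3.52e-04), whereas XBP1, ATF6 and DNAJB9 did not pass (-0.04, -0.04 and -0.14). Heat shock genes fell in 4 of 16 and rose in 0 (median -0.083), and 2 fell without DMSO replicate 3, GNE-7883 replicate 1 or GNE-7883 replicate 3. HSP90AA1 and HSP90AB1 fell with log2 fold changes of -0.23 ± 0.04 (adjusted p = 0.00425) and -0.23 ± 0.04 (adjusted p = 8.97e-04).

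Readouts of ERK signalling did not move in 1 direction. Of 27 ERK output genes, 6 fell and 3 rose (median 0.0040), where 7.86% of all genes tested rose and 6.64% fell, and 3 fell without GNE-7883 replicate 3, which also ended the calls of MYC (adjusted p = 0.0704) and DUSP6 (adjusted p = 0.0605). DUSP5, a nuclear ERK phosphatase, was at 27.8, 27.9 and 27.6 CPM with DMSO and 14.7, 13.2 and 15.5 CPM with GNE-7883. The treated libraries were well below all DMSO libraries, and the change was -0.95 ± 0.07 (adjusted p = 1.75e-06). FOSL1, an AP-1 subunit, was at 184, 188 and 192 CPM with DMSO and 141, 119 and 128 CPM with GNE-7883 and fell with a log2 fold change of -0.54 ± 0.06 (adjusted p = 3.72e-05). SPRY1 and SPRY4, feedback inhibitors of receptor tyrosine kinases, rose with a log2 fold change of 0.92 ± 0.16 (adjusted p = 0.00208) and 0.34 ± 0.06 (adjusted p = 0.00265), and the phosphatase DUSP6 with 0.30 (adjusted p = 0.0111). SPRY1 was low, at 0.914, 0.89 and 1.1 CPM with DMSO and 1.89, 1.7 and 1.87 CPM with GNE-7883. SPRY2, DUSP4, PHLDA1 and CCND1 did not pass (0.08, 0.09, 0.05 and -0.03).

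AP-1 genes fell in 5 of 14 and rose in 1 (median -0.10), with 3 falls without DMSO replicate 1. MAF, a large Maf factor, was the rise, at 10.1, 9.77 and 8.84 CPM with DMSO and 20.5, 17.9 and 19.7 CPM with GNE-7883, a change of 1.01 ± 0.08 (adjusted p = 3.03e-06). JUN, FOS and FOSL2 did not pass (-0.10, -0.11 and 0.02). EGFR ligands and receptors fell in 5 of 13 and rose in 0 (median -0.072), and 3 fell without DMSO replicate 1 or GNE-7883 replicate 2. NRG1, a ligand of ERBB3, was at 44.2, 39.4 and 43.5 CPM with DMSO and 27.7, 23.4 and 24.3 CPM with GNE-7883. NRG1 fell with a log2 fold change of -0.75 ± 0.07 (adjusted p = 1.70e-05). HBEGF fell with a log2 fold change of -0.47 ± 0.05 (adjusted p = 6.39e-05), close to the -0.49 of sensitive cells (difference 0.01, adjusted p = 0.914). ERBB3 fell with a log2 fold change of -0.26 ± 0.05 (adjusted p = 0.00185), and with -2.52 in sensitive cells (adjusted p of the difference = 3.92e-10), while EGFR did not pass (-0.07).

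Ligands and receptors of the FGF and PDGF families rose in 7 of 23 and fell in 5 (median 0.11). Without DMSO replicate 1, 4 rose, and without DMSO replicate 3 or GNE-7883 replicate 2 or 3, 3 fell. FGF5 was at 92.2, 87 and 97.7 CPM with DMSO and 60.4, 59.4 and 59.5 CPM with GNE-7883 and fell with a log2 fold change of -0.63 ± 0.05 (adjusted p = 4.72e-06). FGF1 fell with a log2 fold change of -0.47 ± 0.07 (adjusted p = 7.00e-04), against -3.38 in sensitive cells (adjusted p of the difference = 1.11e-08). FGF18 was at 6.56, 7.37 and 7.27 CPM with DMSO and 10.6, 11.7 and 11.7 CPM with GNE-7883. FGF18 rose with a log2 fold change of 0.68 ± 0.08 (adjusted p = 1.18e-04) in resistant cells, and its value of 0.06 in sensitive cells was not called (adjusted p = 0.438), with a called difference of 0.61 (adjusted p = 2.86e-04). PDGFD, a PDGF receptor ligand, rose with a log2 fold change of 0.68 ± 0.10 (adjusted p = 5.21e-04).

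The strong fall of proliferation genes seen in sensitive cells was not found in the resistant cells. Of 30 S-phase and G1/S genes, 5 fell and 0 rose in resistant cells, with a median of -0.092, whereas 29 fell in sensitive cells with a median of -1.11. Of all genes tested in sensitive cells, 28.4% fell. The difference between lines was called for all 30, with a median of 1.08, against 35.7% of all genes. The resistant calls were unstable: 0 fell without DMSO replicate 1, 1 without GNE-7883 replicate 3, 2 without GNE-7883 replicate 1 and 3 without DMSO replicate 3. CDC6, which loads the replicative helicase, was at 132, 123 and 133 CPM with DMSO and 108, 114 and 114 CPM with GNE-7883. It fell with a log2 fold change of -0.21 ± 0.05 (adjusted p = 0.0112), against -1.53 in sensitive cells (adjusted p of the difference = 6.23e-09), and its call was lost without DMSO replicate 1 (adjusted p = 0.068). PCNA, MCM5, CCNE1 and E2F1 did not pass (-0.05, 0.01, 0.01 and -0.09).

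Of 30 G2/M and mitosis genes, 15 fell and 0 rose, with a median of -0.17, against 30 falls and a median of -1.24 in sensitive cells. Of all genes tested in sensitive cells, 28.4% fell. The difference was called for all 30, against 35.7% of all genes. Without DMSO replicate 1, DMSO replicate 3, GNE-7883 replicate 1 or GNE-7883 replicate 3, the falls numbered 5, 9, 6 and 7. The kinase AURKA was at 101, 95.8 and 102 CPM with DMSO and 80.7, 85 and 80.4 CPM with GNE-7883. It fell with a log2 fold change of -0.28 ± 0.05 (adjusted p = 0.00171), and with -1.35 in sensitive cells. CDC20, the activator of the anaphase-promoting complex, fell with a log2 fold change of -0.27 ± 0.05 (adjusted p = 0.0018), AURKB with -0.29 ± 0.06 (adjusted p = 0.00773) and the checkpoint kinase BUB1 with -0.26 ± 0.05 (adjusted p = 0.00519). MKI67, PLK1, CDK1 and TOP2A did not pass (-0.18, -0.16, -0.08 and -0.08).

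Ribosome biogenesis genes fell in 17 of 25 and rose in 0, with a median of -0.21, and 12 to 18 fell with 1 library left out. All 25 fell in sensitive cells, with a median of -0.86, where 28.4% of all genes tested fell. By the test of the difference, the resistant response lay above the sensitive one in 23, against 19% of all genes. NCL, the nucleolar protein nucleolin, was at 1102, 1116 and 1125 CPM with DMSO and 909.6, 929.5 and 917 CPM with GNE-7883. Its fall was -0.28 ± 0.04 (adjusted p = 1.92e-04). The processing factors BYSL, GNL3 and NOP58 fell with log2 fold changes of -0.31, -0.29 and -0.26. MYC, which drives many of these genes, fell with a log2 fold change of -0.21 (adjusted p = 0.0103), a call lost without GNE-7883 replicate 3 (adjusted p = 0.0704).

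Of 14 genes of CDK inhibitors, D cyclins and their partners, 3 rose and 0 fell (median 0.0052), and 5 rose without DMSO replicate 2. CDKN2B, which encodes p15, was at 24.6, 25.2 and 24.1 CPM with DMSO and 37.1, 34.9 and 36.3 CPM with GNE-7883. It rose with a log2 fold change of 0.55 ± 0.06 (adjusted p = 2.88e-05), less than the 1.59 of sensitive cells (adjusted p of the difference = 9.50e-08). CDKN1A, CDKN1B and CDK6 did not pass (0.01, 0.16 and -0.09). BCL-2 family genes fell in 4 of 16 and rose in 0 (median -0.099). The count of falls was 1 without DMSO replicate 1 or GNE-7883 replicate 3 and 2 without GNE-7883 replicate 1 or 2. The survival gene BCL2L1 fell with a log2 fold change of -0.28 ± 0.05 (adjusted p = 0.00194). MCL1, BCL2L11 and BAX did not pass (-0.02, 0.01 and -0.11). Of 22 p53 targets, 4 fell and 1 rose (median 0.0056), where 7.86% of all genes tested rose and 6.64% fell, so the rises were no more frequent than over all genes. Without DMSO replicate 1 or GNE-7883 replicate 3, 2 fell, and without DMSO replicate 2, 3 rose. TP53INP1 rose with a log2 fold change of 0.53 ± 0.05 (adjusted p = 2.23e-05) and SESN2, which is also an ATF4 target, fell with a log2 fold change of -0.46 ± 0.06 (adjusted p = 1.24e-04). MDM2 did not pass (-0.12).

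Mesothelial markers rose in 10 of 17 tested and fell in 0 (median 0.22), with 7 to 11 rises when 1 library was left out. The list summed to 3130 to 3490 RPKM per DMSO library and 3750 to 4000 RPKM with GNE-7883. A large part of these sums and of their rise was KRT7, at a mean of 1192 RPKM with DMSO and 1533 RPKM with GNE-7883. In sensitive cells 10 of the 17 members rose and 7 fell, where 29.8% of all genes tested there rose and 28.4% fell. CALB2, calretinin, was at 285, 294 and 276 CPM with DMSO and 464, 449 and 467 CPM with GNE-7883. The groups lay well apart. CALB2 rose with a log2 fold change of 0.69 ± 0.04 (adjusted p = 3.96e-07), and in sensitive cells with 0.57 (difference 0.12, adjusted p = 0.293). LRRN4 was at 48, 54.8 and 50.2 CPM with DMSO and 89.1, 74.4 and 77.9 CPM with GNE-7883 and rose with a log2 fold change of 0.66 ± 0.07 (adjusted p = 3.83e-05). UPK3B rose with a log2 fold change of 0.53 ± 0.09 (adjusted p = 0.00194) and ITLN1, the lectin omentin, with 0.83 ± 0.15 (adjusted p = 0.00258) from a low level. MSLN, which encodes mesothelin, did not pass (0.26, adjusted p = 0.0504). Of 11 epithelial markers tested, 2 rose and 0 fell (median 0.086). The count of rises was 5 without DMSO replicate 2 and 1 without DMSO replicate 1 or 3 or GNE-7883 replicate 1 or 3. ELF3, an epithelial Ets factor, rose from 0.914, 0.757 and 0.944 CPM with DMSO to 2.66, 2.8 and 2.38 CPM with GNE-7883, with 1.6 ± 0.16 (adjusted p = 2.11e-05). CDH1 and EPCAM had 48 and 2 counts over the 6 libraries and were not tested.

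Mesenchymal markers rose in 3 of 15 and fell in 3 (median 0.0054), where 7.86% of all genes tested rose and 6.64% fell, and 0 fell without GNE-7883 replicate 3. VIM fell with a log2 fold change of -0.13 (adjusted p = 0.022), a call kept in 1 of the 6 fits with a library left out, that without DMSO replicate 2. SPARC, a collagen-binding matrix protein, was at 5649, 5570 and 5561 CPM with DMSO and 6230, 6309 and 6285 CPM with GNE-7883. It rose with a log2 fold change of 0.17 ± 0.03 (adjusted p = 0.00412), while it fell with a log2 fold change of -0.38 in sensitive cells (adjusted p of the difference = 1.60e-06). Among the 3 alveolar and airway markers tested, SFTPD rose with a log2 fold change of 1.35 ± 0.25 (adjusted p = 0.00258) and 0 fell (median -0.20). SFTPD was low, at 0.47, 0.82 and 0.598 CPM with DMSO and 1.42, 2.1 and 1.34 CPM with GNE-7883. Among the 5 blood and endothelial markers tested, KDR, the VEGF receptor, rose and 0 fell (median 0.31). KDR was at 21.3, 21.9 and 22.7 CPM with DMSO and 30.8, 32.5 and 34.2 CPM with GNE-7883, a rise of 0.56 ± 0.06 (adjusted p = 4.51e-05).

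Genes of TGF-beta, BMP and activin signalling rose in 13 of 34 and fell in 2 (median 0.13, 9 to 14 rises with 1 library left out). FST, follistatin, an antagonist of activin, was at 10.9, 11.5 and 12.1 CPM with DMSO and 5.02, 4.61 and 4.75 CPM with GNE-7883. The treated libraries lay far below the DMSO libraries. FST fell with a log2 fold change of -1.25 ± 0.08 (adjusted p = 9.35e-07), and its value of -0.19 in sensitive cells was not called (adjusted p = 0.34). The difference between lines was -1.07 (adjusted p = 5.44e-04). ID1 and ID2, targets of BMP signalling, went from 19.9, 24.5 and 20.1 CPM with DMSO to 36.1, 32.7 and 33.3 CPM with GNE-7883 for ID1 and from 6.84, 6.81 and 7.68 CPM with DMSO to 13.3, 11.5 and 12.5 CPM with GNE-7883 for ID2, without overlap. They rose with a log2 fold change of 0.66 ± 0.08 (adjusted p = 1.17e-04) and 0.81 ± 0.09 (adjusted p = 3.45e-05), and ID3 and ID4 with 0.44 and 0.37. The feedback genes PMEPA1 and SKIL rose with log2 fold changes of 0.44 and 0.36. TGFB2, TGFBR1, TGFBR2 and INHBA did not pass (-0.18, -0.00, 0.04 and -0.07).

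Integrin and laminin genes, the receptors for matrix and the chief proteins of the basement membrane, rose in 14 of 27 and fell in 1 (median 0.20, 10 to 15 rises with 1 library left out). ITGA11, a collagen receptor subunit, was at 5.81, 5.7 and 4.97 CPM with DMSO and 16.1, 13.1 and 14.9 CPM with GNE-7883. It rose with a log2 fold change of 1.41 ± 0.10 (adjusted p = 1.01e-06), about as in sensitive cells, where the rise was 1.5 (difference -0.09, adjusted p = 0.727). ITGA1 rose with a log2 fold change of 0.91 ± 0.12 (adjusted p = 1.64e-04), ITGB8 with 0.86 ± 0.08 (adjusted p = 1.82e-05) and LAMB3 with 0.65 ± 0.10 (adjusted p = 6.25e-04). ITGA6 fell, with -0.28 (adjusted p = 0.00484). Collagen genes rose in 7 of 20 and fell in 3 (median 0.21), and 11 rose without DMSO replicate 2. COL5A1 and COL6A1 rose with log2 fold changes of 0.41 ± 0.07 (adjusted p = 0.00119) and 0.47 ± 0.09 (adjusted p = 0.00294). COL8A1, a short-chain collagen, was at 80.7, 81.2 and 81.6 CPM with DMSO and 47.3, 44.7 and 45.5 CPM with GNE-7883 and fell with a log2 fold change of -0.82 ± 0.05 (adjusted p = 2.50e-07).

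Metalloprotease and inhibitor genes rose in 8 of 23 and fell in 4 (median 0.18). MMP2, a gelatinase, was at 12.4, 12.6 and 12.5 CPM with DMSO and 29.7, 28.9 and 29.4 CPM with GNE-7883. Within each group the values differed by less than 1 CPM, and the rise was 1.23 ± 0.06 (adjusted p = 5.33e-08), against 2.75 in sensitive cells (adjusted p of the difference = 3.93e-08). MMP9 rose with a log2 fold change of 1.54 ± 0.14 (adjusted p = 7.51e-06) from low levels. ADAMTS1, an aggrecan-cleaving protease, was at 379, 349 and 375 CPM with DMSO and 170, 162 and 165 CPM with GNE-7883. ADAMTS1 fell with a log2 fold change of -1.15 ± 0.05 (adjusted p = 1.36e-08), and with -1.87 in sensitive cells. ADAMTS6 fell with a log2 fold change of -0.80 ± 0.07 (adjusted p = 7.51e-06), far less than the -3.81 of sensitive cells (adjusted p of the difference = 1.35e-06), and the plasminogen activator PLAT with -0.63 ± 0.06 (adjusted p = 2.10e-05). Of 19 cytoskeletal SRF/MRTF targets, 4 fell and 1 rose (median 0.024), where 7.86% of all genes tested rose and 6.64% fell. The falls numbered 2 without GNE-7883 replicate 2 or 3, and the rises 4 without DMSO replicate 2 and 2 without GNE-7883 replicate 2. TAGLN, transgelin, fell with a log2 fold change of -0.45 ± 0.06 (adjusted p = 3.14e-04) and CNN1, calponin, with -0.36 ± 0.08 (adjusted p = 0.0093), while ACTA2 and SRF did not pass (0.04 and -0.10).

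The 20 largest rises and 20 largest falls among called genes with a group mean of at least 5 CPM included genes outside these groups, and all 40 were called again in each of the 6 fits that left out 1 library. KRTAP2-3, a keratin-associated protein of hair at chr17:41059240-41060114, had the largest fall. It was at 23.4, 20.4 and 23.2 CPM with DMSO and 4.85, 4.59 and 4.81 CPM with GNE-7883. The treated libraries agreed closely and lay far below the DMSO libraries. KRTAP2-3 fell with a log2 fold change of -2.23 ± 0.08 (adjusted p = 1.06e-08), and with -5.26 in sensitive cells (difference 3.02, adjusted p = 6.60e-06). It has close relatives in the same cluster whose reads it may share. AOX1, aldehyde oxidase, was at 34.7, 29.9 and 35.1 CPM with DMSO and 18.9, 17.4 and 17.2 CPM with GNE-7883 and fell with a log2 fold change of -0.89 ± 0.07 (adjusted p = 4.87e-06). MYCT1 fell with a log2 fold change of -1.26 ± 0.10 (adjusted p = 3.18e-06), VSTM1 with -1.13 ± 0.09 (adjusted p = 4.06e-06), KCNU1, a potassium channel, with -1.09 ± 0.09 (adjusted p = 3.75e-06), and SLC28A3, a nucleoside transporter, with -1.01 ± 0.12 (adjusted p = 1.25e-04). SRGN, serglycin, KCTD4 and CFAP251 fell with log2 fold changes of -0.81, -0.88 and -0.81.

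Among the rises outside the groups, NDRG4 was at 9.49, 8.32 and 7.96 CPM with DMSO and 26.3, 24 and 28.1 CPM with GNE-7883. The rise was 1.6 ± 0.08 (adjusted p = 9.40e-08), smaller than the 2.41 of sensitive cells (difference -0.82, adjusted p = 1.49e-05). KLHL4, of the kelch family, was at 2.76, 2.56 and 2.96 CPM with DMSO and 7.02, 7.84 and 7.52 CPM with GNE-7883 and rose with a log2 fold change of 1.44 ± 0.10 (adjusted p = 1.38e-06), against 3.05 in sensitive cells. SCNN1A, a subunit of the epithelial sodium channel, was at 6.11, 6.72 and 6.96 CPM with DMSO and 15.2, 14.8 and 16.3 CPM with GNE-7883. It rose with a log2 fold change of 1.23 ± 0.08 (adjusted p = 8.66e-07), and the 1.18 of sensitive cells was not detectably different (difference 0.05, adjusted p = 0.758). PLAAT4, a retinoid- and interferon-inducible phospholipase, rose with a log2 fold change of 1.53 ± 0.12 (adjusted p = 2.99e-06), SELENBP1, a selenium-binding protein, with 1.34 ± 0.09 (adjusted p = 1.28e-06), FPR1, the formyl peptide receptor, with 1.14 ± 0.11 (adjusted p = 1.41e-05) and RAB7B, a small GTPase, with 1.14 ± 0.09 (adjusted p = 3.18e-06). ABCC3 was the only one of 10 ABC efflux genes tested that rose, and 0 fell (median 0.12). It was at 3.94, 3.56 and 3.71 CPM with DMSO and 9.31, 8.8 and 8.78 CPM with GNE-7883, and the rise was 1.26 ± 0.09 (adjusted p = 1.38e-06), against 2.34 in sensitive cells (adjusted p of the difference = 1.20e-06). With GNE-7883 replicate 1 left out, 2 of the ABC efflux genes rose.

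**Figure D4:**
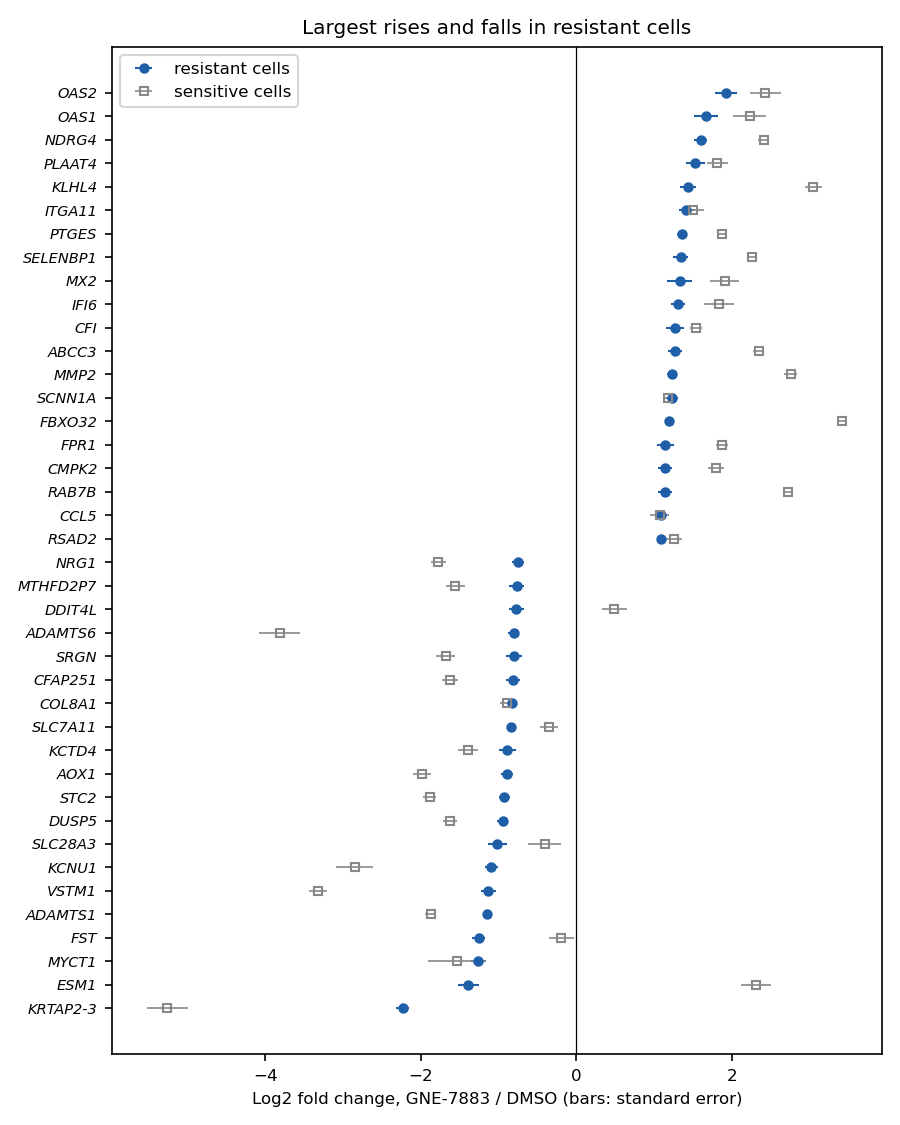
Log2 fold change with GNE-7883 of the 20 largest rises and 20 largest falls in resistant cells (filled circles) and of the same genes in sensitive cells (open squares), with standard errors as bars. OAS2 and KRTAP2-3 stand at the ends for resistant cells, and ESM1 and DDIT4L lie on opposite sides of 0 in the 2 lines.

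Some genes moved in opposite directions in the lines. Over all genes, 84 rises and 49 falls of resistant cells were called in the other direction in sensitive cells, and the difference was called for each of them. ESM1, an endothelial proteoglycan that VEGF raises, was at 4.83, 6.14 and 5.29 CPM with DMSO and 2.38, 1.82 and 1.99 CPM with GNE-7883. The treated libraries lay below all DMSO libraries. ESM1 fell with a log2 fold change of -1.39 ± 0.14 (adjusted p = 1.82e-05), and rose with a log2 fold change of 2.31 in sensitive cells, a difference of -3.7 (adjusted p = 1.14e-08). HK2, the hexokinase of many tumours, was at 53.6, 58.6 and 58.1 CPM with DMSO and 44.9, 45.2 and 46.3 CPM with GNE-7883. HK2 fell with a log2 fold change of -0.32 ± 0.05 (adjusted p = 0.00122) and rose with a log2 fold change of 1.5 in sensitive cells (adjusted p of the difference = 5.43e-09). KRT7, a keratin of simple epithelia and mesothelium, was at 2019, 2296 and 1958 CPM with DMSO and 2824, 2580 and 2673 CPM with GNE-7883 and rose with a log2 fold change of 0.36 ± 0.06 (adjusted p = 6.89e-04), where sensitive cells lowered it with a log2 fold change of -0.58 (adjusted p of the difference = 1.16e-05). HERPUD1, an endoplasmic reticulum stress gene, fell with a log2 fold change of -0.25 ± 0.04 (adjusted p = 0.00172) and rose with a log2 fold change of 0.35 in sensitive cells. DDIT4L, an inhibitor of mTOR signalling, fell with a log2 fold change of -0.77 ± 0.10 (adjusted p = 1.30e-04) and rose with a log2 fold change of 0.49 there. ITGB4, an integrin of hemidesmosomes, rose with a log2 fold change of 0.42 ± 0.08 (adjusted p = 0.00388) and fell with a log2 fold change of -0.22 there.

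**Figure D5:**
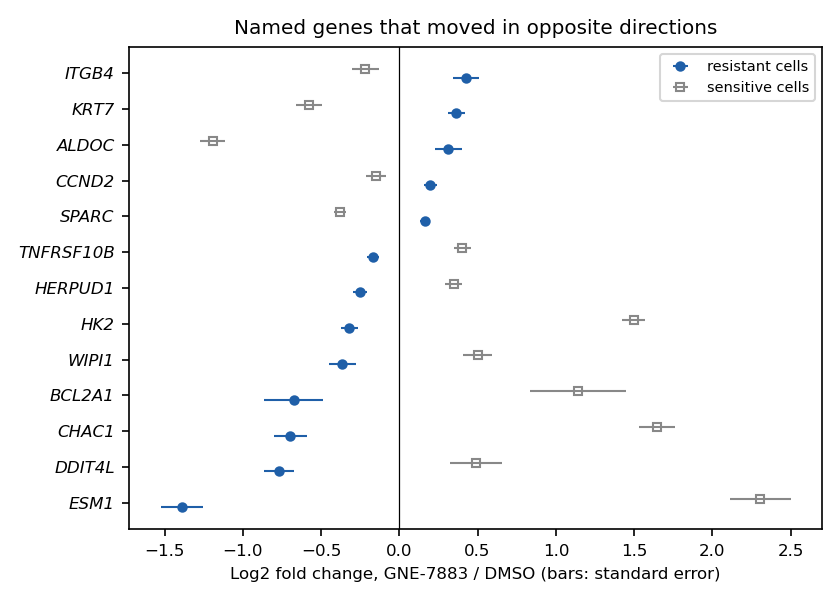
Log2 fold change with GNE-7883, with standard errors, of 13 named genes that were called in opposite directions in resistant (filled circles) and sensitive cells (open squares). ESM1 is farthest apart, at -1.39 and 2.31, and CCND2 closest, at 0.20 and -0.15.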

How the data were processed

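RNA-seq of 12 libraries was deposited as counts and RPKM per gene. Per the submitters' processing notes, GSNAP (2013-10-10), GRCh38.p10 and limma were used; the program that counted reads, with its annotation, is not given in the sources used here. Per the labels' protocols, the kit was TruSeq RNA v2, which marks no strand, so overlapping genes on opposite strands cannot be told apart. The deposited counts went into edgeR 4.0.16 (R 4.3.3): TMM scaling, filterByExpr, and the two-sided quasi-likelihood test on the 6 resistant libraries alone, with Benjamini-Hochberg adjustment over 17029 genes; SE is the standard error of the log2 fold change. The authors' deposited RPKM, which are counts per length and depth, were used for marker levels. Sensitive responses and differences between lines come from 1 edgeR fit of all 12 libraries. The script was tested on simulated counts, with 200 genes changed in each run. It called 24% of changes of 1.2-fold, 68.5% of changes of 1.5-fold and 86.5% of changes of 2-fold. The runs changed fewer genes than the 2470 called in the data and took the spread of each gene from a trend with level. These shares are thus a check of the script and may differ from those of the real fit. A gene that did not pass may therefore still have changed by a small amount. A count of 3, 0.0639 to 0.0941 CPM, is the limit that 0 counts allow, for counting error only. Symbols and GENCODE coordinates matched 58039 of 58302 gene IDs.

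The members and the 42 lists were chosen with earlier results of these data known. Named genes were the 20 largest rises and falls with a group mean of at least 5 CPM, up to 5 called members of each list by size, and a set of pathway genes; other members of the lists are named after their values were seen. Alternatives were DESeq2 1.42.0, other scalings and filters, a replicate block, a fold threshold and libraries left out. Some genes of the lists enter the counts and are not reported here by name.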

Additional observations from a re-analysis of the deposited data

Results flagged for a closer look

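The responses of the lines differed, by the edgeR test of the difference (adjusted p below 0.05), for the following named genes; each value is the resistant minus the sensitive log2 fold change. Among genes that rose in resistant cells, the response was smaller there for NDRG4 (-0.82), KLHL4 (-1.61), PTGES (-0.51), SELENBP1 (-0.92), ABCC3 (-1.09), MMP2 (-1.53), FBXO32 (-2.22), FPR1 (-0.73), CMPK2 (-0.66), RAB7B (-1.59), TEAD2 (-0.48) and WWTR1 (-0.49). Among genes that fell, the fall was smaller in resistant cells for KRTAP2-3 (3.02), ADAMTS1 (0.72), VSTM1 (2.19), KCNU1 (1.75), DUSP5 (0.68), STC2 (0.96), AOX1 (1.09), KCTD4 (0.50), CFAP251 (0.80), SRGN (0.87), ADAMTS6 (3.01), MTHFD2P7 (0.78), NRG1 (1.02), ANKRD1 (1.86), CCN2 (2.36) and CCN1 (0.97).

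The fall was larger in resistant cells for FST (-1.07) and SLC7A11 (-0.49). Genes called in opposite directions were ESM1 (-3.7), DDIT4L (-1.26), CHAC1 (-2.35), HERPUD1 (-0.60), BCL2A1 (-1.82), TNFRSF10B (-0.57), HK2 (-1.82) and WIPI1 (-0.87), which fell in resistant cells, and KRT7 (0.94), SPARC (0.54), ITGB4 (0.64), CCND2 (0.34) and ALDOC (1.5), which rose there. The resistant call was lost without DMSO replicate 1 or GNE-7883 replicate 3 for CCND2, TNFRSF10B and WIPI1, also without GNE-7883 replicate 2 for BCL2A1, and for ALDOC without DMSO replicate 3 or GNE-7883 replicate 1 too. YAP1 (-0.49), TEAD3 (0.40) and TEAD4 (0.88) were not called in resistant cells.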

How the results depend on the processing

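Over the settings tried, the count of rises (1339) was 254 in a test against a fold change of 1.2 and 883 with the replicate number as a block, and the count of falls (1131) was 135, 575, and 716 with all 12 libraries in 1 fit. Leaving out 1 library gave 773 to 1807 rises and 529 to 1372 falls. Under DESeq2 size factors, library totals alone, the DESeq2 Wald test, no filter and a filter of 5 CPM the counts stayed within 1.5 times. The labels state no pairing, and the correlations of same-numbered deviations were -0.128, -0.215 and -0.008. These deviations followed GC content in most libraries, so they cannot show whether the libraries were paired. The block result is given as that of another model. The block ended 34 of the 207 calls of named genes and the fit of 12 libraries 37, and none of these 207 changed direction under the alternatives run. Genes near 0 did with 1 library left out: the log2 fold change ranged from -0.0291 to 0.026 for YAP1, -0.0705 to 0.0154 for TEAD1 and -0.0077 to 0.081 for TEAD3. The difference of responses, 3435 higher and 3008 lower, was 3016 and 2685 with the block. Of genes with a mean of up to 1.73 CPM, 3.36% were called. The effect of depth itself was not tested.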

Other observations

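Lysosome and autophagy genes rose in 12 of 24 tested and fell in 1 (median log2 fold change 0.16), where 7.86% of all genes tested rose and 6.64% fell, with 7 rises without DMSO replicate 1 or GNE-7883 replicate 1, and 0 falls without DMSO replicate 1 or GNE-7883 replicate 3. CTSA, a lysosomal carboxypeptidase, was at 99.8, 108 and 103 CPM with DMSO and 139, 127 and 134 CPM with GNE-7883 and rose with a log2 fold change of 0.37 ± 0.05 (adjusted p = 2.61e-04). The protease TPP1 rose with a log2 fold change of 0.33 ± 0.04 (adjusted p = 1.09e-04) and TFEB, a regulator of lysosomal genes, with 0.59 ± 0.13 (adjusted p = 0.0069). FOXO-type genes rose in 9 of 18 and fell in 3 (median 0.19). The rises were 5 without DMSO replicate 1, GNE-7883 replicate 1 or GNE-7883 replicate 3, and the falls 1 without the first or the last of these. FBXO32, a ubiquitin ligase that FOXO factors raise, was at 27.7, 30 and 27.9 CPM with DMSO and 64.4, 65.8 and 66.1 CPM with GNE-7883. FBXO32 rose with a log2 fold change of 1.2 ± 0.05 (adjusted p = 2.75e-08), and with 3.42 in sensitive cells. PIK3IP1, an inhibitor of phosphoinositide 3-kinase, rose with a log2 fold change of 1.08 ± 0.14 (adjusted p = 1.40e-04).

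Over all genes tested, 7.86% rose and 6.64% fell, and the counts of the following lists are to be read against these shares. Hypoxia and glycolysis genes rose in 3 of 28 and fell in 3 (median -0.022), shares near those of all genes, with 6 rises without DMSO replicate 2 and 1 without DMSO replicate 1. CA9, a carbonic anhydrase, rose with a log2 fold change of 0.62 ± 0.09 (adjusted p = 5.71e-04) and ADM, adrenomedullin, fell with a log2 fold change of -0.29 ± 0.06 (adjusted p = 0.00642). NRF2 and glutathione genes rose in 3 of 16 and fell in 4 (median 0.043), with 1 rise without DMSO replicate 1. GCLC, the catalytic subunit of glutamate-cysteine ligase, fell with a log2 fold change of -0.31 ± 0.06 (adjusted p = 0.00374). Wnt and Notch genes rose in 2 of 25, the share of all genes that rose being 7.86%, and fell in 3 (median 0.044), with 1 fall without DMSO replicate 1. WNT5B was at 73.1, 74.9 and 70.4 CPM with DMSO and 48.8, 41.2 and 44.3 CPM with GNE-7883 and fell with a log2 fold change of -0.70 ± 0.06 (adjusted p = 8.02e-06), while WNT5A rose with a log2 fold change of 0.31 ± 0.06 (adjusted p = 0.00368). Cholesterol synthesis genes rose in 1 of 23 and fell in 1 (median 0.016), INSIG1 and FDFT1. The call of INSIG1 was lost with any 1 library left out and that of FDFT1 without DMSO replicate 1 or 3 or GNE-7883 replicate 2 or 3. Fatty acid synthesis genes rose in 4 of 13 and fell in 0 (median 0.084), with 1 rise without DMSO replicate 1 or GNE-7883 replicate 3 and 2 without GNE-7883 replicate 1. Mitochondrially encoded genes rose in 4 of 13 and fell in 0 (median 0.17), with 9 rises without DMSO replicate 3 and 2 without DMSO replicate 1 or GNE-7883 replicate 2. MT-ND1, a subunit of complex I, was at 111, 123 and 136 CPM with DMSO and 172, 154 and 145 CPM with GNE-7883 and rose with a log2 fold change of 0.35 ± 0.07 (adjusted p = 0.0063).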
